A study of Mus musculus with 8 samples.

Results

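The cytosolic ribosomal proteins are the protein part of the ribosome of the cytoplasm, and their genes were compared between control and NOX4-deficient skeletal muscle. Genes were chosen by name alone, as every Rps (small subunit) or Rpl (large subunit) symbol followed by a number and at most a paralog letter, plus the stalk genes Rplp0 to Rplp2 and Rpsa. The rule found 81 genes, 32 of the small and 49 of the large subunit, among 32390 rows of the count table, after 85 matching rows were reduced to the row with most counts for each name. Of these, 77 had enough counts to be tested, among 12725 rows tested in all.

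Gastrocnemius, a fast calf muscle, was taken from 21-month-old male mice on a C57BL/6 background that were fed the 4.8% fat chow, and was sequenced in bulk as poly(A) RNA. The 4 controls were Nox4 fl/fl mice, which carry the floxed alleles without Cre, and the 4 NOX4-deficient mice were MckCre:Nox4 fl/fl. NOX4 is an oxidase that generates hydrogen peroxide. The Mck promoter drives Cre mainly in skeletal and less in heart muscle, so that other cells within the muscle keep the gene, and the controls carried no Cre. Each library came from 1 mouse and held 16350548 to 19804661 counts, and the labels gave all 8 the same batch.

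Every ribosome holds 1 copy of most of these proteins, so the genes are usually expressed in concert, and their mRNAs are short, abundant and long-lived. Most start with a tract of pyrimidines through which mTORC1, acting by way of LARP1, turns their translation on and off without a change in mRNA. Striated muscle is unusual in that it expresses Rpl3l, a paralog of Rpl3, and ribosomes with one or the other protein exist side by side. The values below are levels of mRNA, and neither translation nor ribosome number was measured.

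The genotypes were compared first. No ribosomal protein gene was called in either direction: 0 of 77 had an adjusted p under 0.05 with an absolute log2 fold change over 0.5, whereas 6.16% of all rows tested did, 2.68% higher and 3.48% lower in NOX4-deficient muscle (edgeR quasi-likelihood test, Benjamini-Hochberg adjustment over all rows). None had an adjusted p under 0.05 at any fold change, beside 7.75% of rows. None had an unadjusted p under 0.05 by edgeR, DESeq2 or pydeseq2, and the smallest adjusted p in edgeR was 0.407, for Rpl38. The 2 genotypes overlapped for every one of the 77 genes, while they did not overlap for 16.2% of all rows. The log2 fold changes ran from −0.25 to 0.26 with a median of 0.09, beside 0.01 over all rows, and 69 of 77 were above 0, beside 52.3% of all rows. The 95% interval of the log2 fold change lay within 0.5 of 0 for 67 genes and within 1 of 0 for all 77, and the median interval ran from −0.20 to 0.39. Differences as large as the 0.26 of Rpl38 were within the spread between mice. The 31 small-subunit and 46 large-subunit genes had the same median of 0.09.

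**Figure D1:**
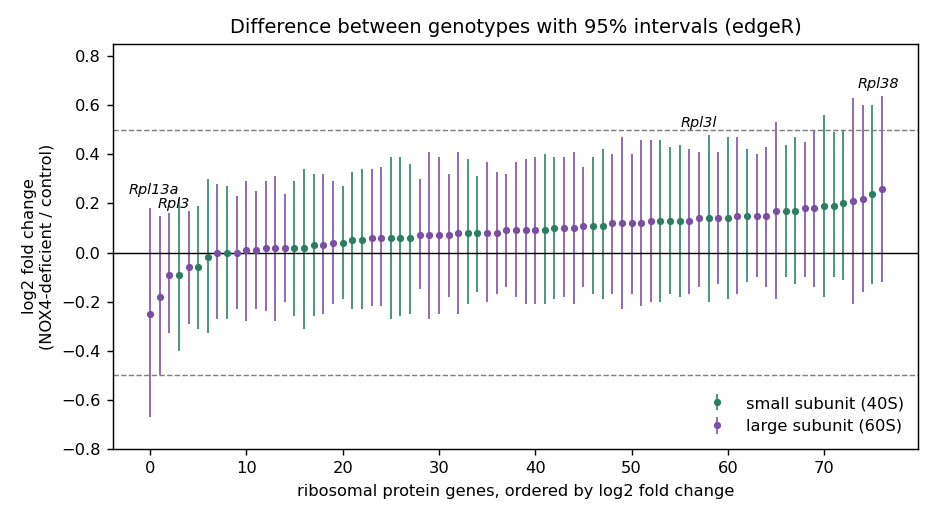
Log2 fold change (vertical axis, NOX4-deficient over control, 4 mice each) of the 77 ribosomal protein genes tested, ordered from lowest to highest, with 95% intervals from edgeR. Every interval crosses 0, and 67 stay between the dashed lines at −0.5 and 0.5.

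The direction of the median was not stable. It was 0.00, with 40 of 77 genes above 0, when NOX4-deficient replicate 1 was left out, and 0.02, with 46 above 0, when each library's trend with transcript length and GC content was removed.

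What the 77 genes had in common was a spread between the NOX4-deficient mice. Their levels were given as CPM, the count relative to the library total scaled by TMM, a factor that makes libraries comparable, and each was set against the mean of the 4 controls. The median gene stood at 1.26-fold in NOX4-deficient replicate 1, 0.836-fold in replicate 2, 1.21-fold in replicate 3 and 0.932-fold in replicate 4. In control replicates 1 to 4 it stood at 1.02, 0.962, 1.03 and 0.98-fold. Replicates 1 and 3 were thus high and 2 and 4 low in the NOX4-deficient group, with the controls between them. Replicate 1 held the highest of the 8 levels for 58 genes and replicate 3 for 16, and replicate 2 held the lowest for 72. The genes took 1.73, 1.22, 1.63 and 1.28% of all counts in the 4 NOX4-deficient libraries, against 1.34 to 1.44% in the controls.

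**Figure D2:**
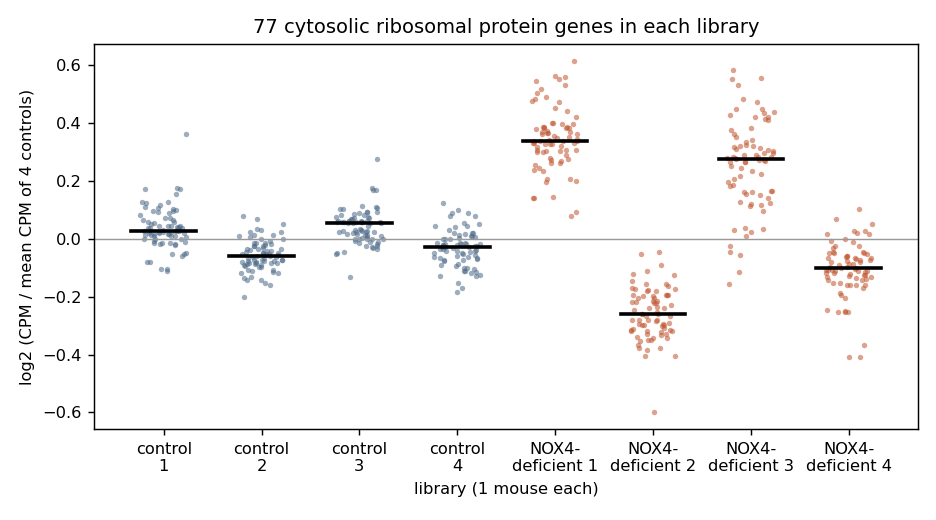
Each point is 1 of 77 ribosomal protein genes in 1 library, as log2 of its CPM over the mean CPM of the 4 controls (vertical axis). Black bars are medians, which lie between −0.06 and 0.05 in the controls and at 0.34, −0.26, 0.27 and −0.10 in NOX4-deficient replicates 1 to 4.

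The standard deviation over 4 mice of the log2 level had a median of 0.07 in the controls and 0.29 in the NOX4-deficient mice, and was larger in the latter for 76 of 77 genes. Over all rows the medians were 0.20 and 0.24, and the NOX4-deficient group was the more variable in 60.4% of rows. The ribosomal protein genes thus varied less between control mice than the median row, but not less between NOX4-deficient mice.

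The replicate numbers were therefore compared as odd (1 and 3) against even (2 and 4). In the NOX4-deficient group both odd-numbered mice were above both even-numbered mice for 77 of 77 genes, beside 26.1% of all rows. The difference of log2 levels between odd and even had a median of 0.49, a fold of 1.41, and ran from 0.22 for Rps27l to 0.82 for Rplp1. In the controls its median was 0.08, with a range of −0.11 to 0.26.

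Set against controls of the same parity, 73 genes were higher in the odd-numbered NOX4-deficient mice and 72 were lower in the even-numbered ones. The median differences were 0.28 (1.21-fold) and −0.15 (0.902-fold) on the log2 scale, and 68 genes had both signs, beside 16.4% of all rows. Rpl3, Rpl10, Rpl13a and Rps6 were the 4 genes that were not higher in the odd-numbered mice. These genes were picked out after their values were seen.

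A stricter pattern asked that NOX4-deficient replicates 1 and 3 lie above, and 2 and 4 below, every control. It was met by 41 of 77 ribosomal protein genes, 19 of the small and 22 of the large subunit, and by 1.05% of all rows (133 of 12725). The opposite pattern was met by 1.18% of rows and by 0 of the ribosomal protein genes. The labels give no meaning to odd and even numbers, and the pattern was seen in the data before these counts were made, so no test was attached to it.

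**Figure D3:**
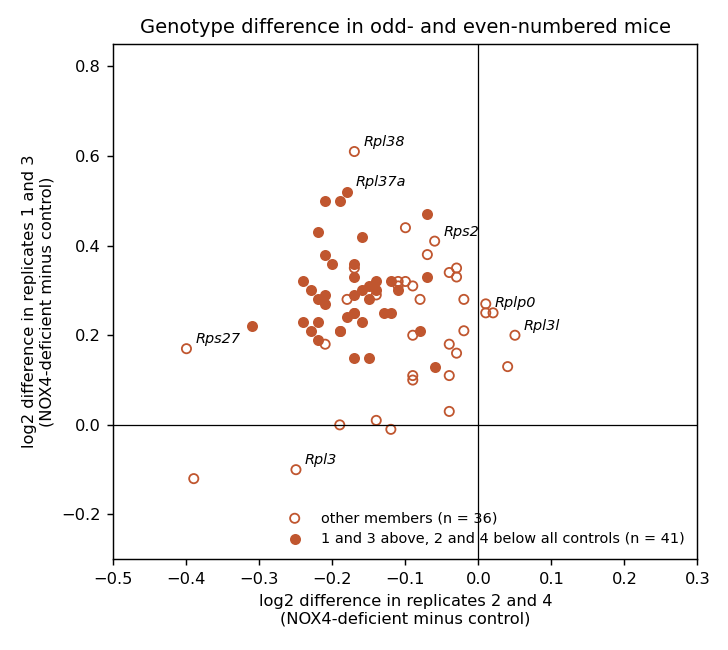
Log2 difference between NOX4-deficient and control mice in replicates 1 and 3 (vertical axis) against that in replicates 2 and 4 (horizontal axis), for 77 ribosomal protein genes. Most points lie in the upper left part, with 68 genes higher in the odd-numbered and lower in the even-numbered NOX4-deficient mice, and filled points are the 41 genes whose 4 NOX4-deficient values flank all 4 controls.

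When only the odd-numbered mice were fitted (2 against 2), 7 of 78 ribosomal protein genes had an adjusted p under 0.05 (edgeR quasi-likelihood test, Benjamini-Hochberg adjustment), all higher in NOX4-deficient muscle, beside 4.65% of all rows in either direction and 1.41% higher. They were Rpl37a, Rpl38, Rplp1, Rplp2, Rps12, Rps20 and Rps29. Rpl37a and Rpl38 also passed the fold threshold, with log2 fold changes of 0.51 and 0.60, beside 4.31% of rows called in either direction and 1.3% called higher. In the even-numbered mice alone 0 of 78 passed, with a smallest adjusted p of 0.167, and 0.7% of rows were called. The odd-numbered fit takes the mice already seen to stand high, so its adjusted p-values are given as a description and support no difference between genotypes. The difference between the odd and even results was not tested. With the length and GC trend removed, 1 gene in the odd-numbered mice, Rps20, and 0 in the even-numbered mice had an adjusted p under 0.05. The transcript assigned to Rps20 had 3706 bases, with a coding part of 357 bases, and its correction rests on that length. With the trend removed, its odd and even difference in the NOX4-deficient group rose from 0.54 to 0.72.

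Rpl38, a small protein of the large subunit known for a role in the translation of Hox mRNAs, was the nearest to a difference between genotypes. It was at 41.7, 39.1, 39.9 and 45.1 CPM in the controls and at 63.3, 34.7, 60.9 and 40 CPM in NOX4-deficient replicates 1 to 4. The odd-numbered NOX4-deficient mice were above every control, replicate 2 was below every control, and replicate 4 was among them. The log2 fold change over all mice was 0.26 ± 0.18 (SE, n = 4 per genotype; edgeR, adjusted p = 0.407).

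Rplp1 and Rplp2 encode the acidic proteins of the stalk that recruits elongation factors, and Rplp0 encodes its base. Rplp1 was at 207, 176, 192 and 189 CPM in the controls and at 279, 150, 286 and 171 CPM in the NOX4-deficient mice. Rplp2 was at 119, 103, 112 and 111 CPM in the controls and at 155, 90.5, 155 and 101 CPM in the NOX4-deficient mice. Both thus stood above all controls in the odd-numbered and below all controls in the even-numbered NOX4-deficient mice, with differences between odd and even of 0.82 and 0.70 on the log2 scale. Rplp0 was at 587, 592, 598 and 508 CPM in the controls and at 721, 498, 689 and 613 CPM in the NOX4-deficient mice, a difference between odd and even of 0.35. The level of Rplp0 in replicate 4 was above all 4 controls, unlike that of its stalk partners.

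Rpl37a, which encodes a small zinc-binding protein of the large subunit, was at 104, 102, 107 and 100 CPM in the controls and at 151, 85.7, 151 and 93.5 CPM in the NOX4-deficient mice. Rps12, of the small subunit, was at 116, 97.2, 102 and 98.2 CPM in the controls and at 152, 89.3, 149 and 97.0 CPM in the NOX4-deficient mice. In both genes the 4 NOX4-deficient values flanked all controls. Over all mice the log2 fold changes were 0.22 ± 0.17 and 0.24 ± 0.17 (SE, n = 4 per genotype; edgeR, adjusted p = 0.494 and 0.438).

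Promoters are shown for the genes named from the odd-numbered mice that had a RefSeq entry, with Rpl3l for contrast. Whether the promoters bear on the levels was not tested. Each window holds the 80 bases before and the first 20 bases after the annotated start (RefSeq, build GRCm38.p6), read 5′ to 3′ on the strand of the gene, and capitals mark CTTCCG on either strand, the core of sites for ETS family factors. The last 20 bases lie in the first exon. The windows are Rpl37a at chr1:72711180-72711279 on the plus strand, Rpl38 at chr11:114668500-114668599 on the plus strand, Rplp2 at chr7:141447571-141447670 on the plus strand, Rps12 at chr10:23787190-23787289 on the minus strand and Rpl3l at chr17:24727746-24727845 on the plus strand, from the first of its 2 listed starts.
Rpl37a: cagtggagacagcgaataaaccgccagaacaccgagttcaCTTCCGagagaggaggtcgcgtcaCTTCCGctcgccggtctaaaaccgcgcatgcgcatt
Rpl38: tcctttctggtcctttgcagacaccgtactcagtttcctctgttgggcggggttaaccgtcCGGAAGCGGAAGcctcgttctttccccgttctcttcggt
Rplp2: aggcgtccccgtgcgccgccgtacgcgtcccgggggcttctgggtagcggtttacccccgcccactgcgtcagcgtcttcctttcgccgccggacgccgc
Rps12: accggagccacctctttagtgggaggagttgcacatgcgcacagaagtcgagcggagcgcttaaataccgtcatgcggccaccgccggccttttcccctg
Rpl3l: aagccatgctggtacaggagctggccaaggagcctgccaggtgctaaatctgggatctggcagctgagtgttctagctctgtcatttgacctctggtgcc

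RefSeq listed 72 starts for 60 of the 81 genes, and the search covered 250 bases before to 50 after each. CTTCCG, on either strand, was in 61.1% of these windows and in 16.9% of all 32851 windows. AAGATGG, the core of YY1 sites, was in 15.3% against 6.34%, and CTCTTTC, a run of pyrimidines on one strand, in 27.8% against 8.16%, both searched on both strands. TATAAA, the TATA box, was in 8.33% against 13.6%. The first 5 bases from the annotated start were all pyrimidines in 22.2% of the windows and in 4.44% of all windows. On the other strand CTTCCG reads CGGAAG, which can share its last letters with AAGATGG, and a match describes letters in a window, not a bound site.

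Transcript length moved with the odd and even difference. The ribosomal protein transcripts had a median length of 751 bases (271 to 3706), against 2831 over the rows tested. The longest was that assigned to Rps20, the 1 member from 3000 to 5000 bases. Among other genes with a mean of at least 16 CPM, the NOX4-deficient difference of log2 levels between odd and even fell from a median of 0.49 for 35 genes up to 500 bases to −0.35 for 1116 genes over 5000 bases. In the controls the medians of the same bins ran from 0.14 to −0.15.

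Ribosomal protein genes lay above the other genes of their length in each bin. Up to 500 bases their median was 0.56 (18 genes) against 0.49, from 500 to 750 bases 0.52 (19 genes) against 0.42, from 750 to 1000 bases 0.47 (22 genes) against 0.36, and from 1000 to 1500 bases 0.38 (11 genes) against 0.26. The stricter pattern was met by 34 of 59 ribosomal protein genes of up to 1000 bases (57.6%) and by 22 of 382 other genes of that length with at least 16 CPM (5.76%). These were not matched for level or spread. Their control level had a median of 45.6 CPM against 136 for the ribosomal protein genes, and their control SD a median of 0.14 against 0.07 on the log2 scale, and a narrower control range makes the pattern easier to meet. When each library's trend with length and GC content was removed, the median difference between odd and even in the NOX4-deficient group fell from 0.49 to 0.15, with 67 of 77 genes above 0 beside 51.4% of rows. The difference that remained was not tested.

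**Figure D4:**
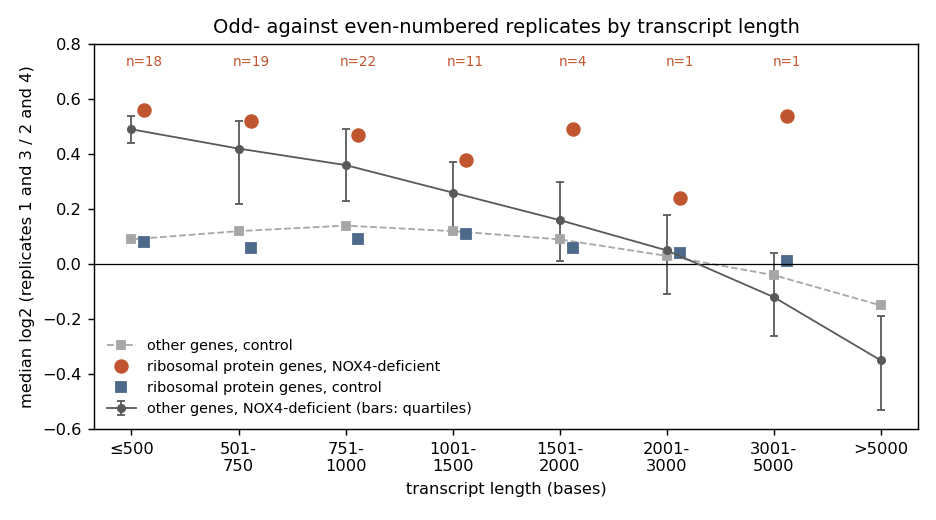
Median log2 difference between odd- and even-numbered replicates (vertical axis) by transcript length in bases (horizontal axis), for genes with a mean of at least 16 CPM. Grey circles (bars, quartiles) and grey squares are other genes in NOX4-deficient and control mice, coloured symbols are ribosomal protein genes with their number above, and in NOX4-deficient mice the line falls from 0.49 to −0.35 while the ribosomal protein genes lie above it in each bin.

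Levels of some cell type markers also moved with the replicate number. The summed level of the blood markers Hba-a1, Hbb-bs and Alas2 was 159, 80, 118 and 72.3 CPM in NOX4-deficient replicates 1 to 4 and 47.6 to 52.7 CPM in the controls. The summed level of 8 immune markers was 42.8, 28.6, 42.7 and 20 CPM in the same mice. In control replicates 1 to 4 it was 80, 44.7, 40 and 31.4 CPM. The odd-numbered mean was the higher for 3 of 3 blood and 6 of 8 immune markers in the NOX4-deficient group. Lyz2 was the largest part of the immune sum, and Adgre1 and Cd3e went the other way (−0.54 and −0.39 on the log2 scale). The median difference between odd and even of the immune markers was 0.88 in the NOX4-deficient group and 0.72 in the controls. For the blood markers it was 0.95 and 0.1. Adipocyte and slow fiber markers did not follow the numbers. The adipocyte sums were 24.2, 65, 15.3 and 17.2 CPM, against 7.06 to 37.3 CPM in the controls. Those of slow fiber were 294, 314, 413 and 769 CPM, against 186 to 443 CPM in the controls. None of the blood or immune markers was at 0. Skeletal muscle markers summed to 146000, 130000, 155000 and 141000 CPM in NOX4-deficient replicates 1 to 4. In control replicates 1 to 4 they summed to 128000, 126000, 156000 and 122000 CPM, so odd numbers stood higher in both groups. Fibroblast and tendon markers had a median difference between odd and even of 0.39 in the NOX4-deficient group and 0.29 in the controls. Their sums of 556, 632, 650 and 392 CPM in NOX4-deficient replicates 1 to 4 did not follow the numbers. The part of blood, immune cells or transcript length in the ribosomal protein levels was not tested. In bulk tissue fewer cells of a type and less RNA per cell cannot be told apart.

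The targeted gene checks the labels only in part. Nox4 had 85, 48, 35 and 70 counts in the controls and 29, 43, 42 and 37 counts in the NOX4-deficient mice, so that the groups overlapped (log2 fold change −0.65 ± 0.29, SE, n = 4 per genotype; edgeR, adjusted p = 0.207). The region that the floxed alleles remove cannot be seen in counts per gene.

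Rpl3l, the striated muscle form, far exceeded Rpl3. Per kilobase of coding length, Rpl3l was at 349 ± 36.6 CPM in the controls and 383 ± 59.8 CPM in the NOX4-deficient mice, and Rpl3 at 34.9 ± 6.61 and 30.8 ± 5.18 CPM (SD, n = 4). In the order of levels per coding length in the controls, Rpl3l was number 30 and Rpl3 number 76 of 77.

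Rpl3l was at 437, 409, 481 and 375 CPM in control replicates 1 to 4 and at 534, 380, 521 and 434 CPM in the NOX4-deficient mice. Replicates 1 and 3 were above all controls, and 2 and 4 were within them. Rpl3 was at 54.1, 38.1, 38.4 and 37.9 CPM in the controls and at 44.5, 32.4, 40.5 and 31.7 CPM in the NOX4-deficient mice. Control replicate 1 was above all others, and NOX4-deficient replicates 2 and 4 were below every control. The log2 fold change was 0.14 ± 0.13 for Rpl3l and −0.18 ± 0.15 for Rpl3 (SE, n = 4 per genotype; edgeR, adjusted p = 0.577 and 0.527), with 95% intervals of −0.14 to 0.41 and −0.50 to 0.15. Without control replicate 1 that of Rpl3 was −0.04.

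Because both transcripts are of like length and come from the same library, their ratio is free of the scaling. Per coding length the ratio of Rpl3l to Rpl3 was 8.0, 10.6, 12.4 and 9.81 in the controls and 11.9, 11.6, 12.8 and 13.6 in the NOX4-deficient mice. Control replicate 3 lay among the NOX4-deficient mice, and the other 3 controls were below them all. The means were 10.2 ± 1.82 and 12.5 ± 0.889 (SD, n = 4), a 1.23-fold difference that an exact two-sided permutation test over 70 relabellings did not separate from the spread between mice (p = 0.0857, with 0.0286 the smallest p possible). The odd and even difference did not appear in the ratio. Without control replicate 3, the only control among the NOX4-deficient mice, the log2 difference was 0.40 instead of 0.30. Its exact permutation p of 0.0286 follows from the choice of that mouse and supports no difference. Over all 8 omissions the log2 difference ran from 0.19 to 0.40.

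**Figure D5:**
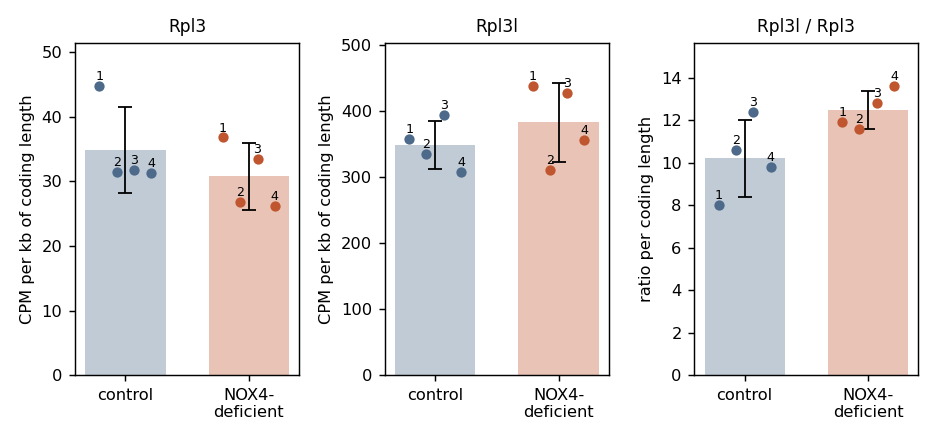
Level of Rpl3 and Rpl3l (CPM per kilobase of coding length) and their ratio in each mouse, numbered by replicate, with bars for the mean and error bars for the SD (n = 4). Rpl3l lies at least 8.0 times above Rpl3 in every mouse, and the ratio overlaps between genotypes through control replicate 3.

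Other members with a paralog were described in the same way. Rps27l, a paralog of Rps27 induced by p53, was at 47.3, 49.5, 52.6 and 50.6 CPM in the controls and at 62.3, 46.3, 51.3 and 51.0 CPM in the NOX4-deficient mice. Rps27 was at 80.7, 89.1, 86.7 and 92.0 CPM in the controls and at 110, 69.4, 80.4 and 67.6 CPM in the NOX4-deficient mice. Only replicate 1 was high in both genes, and the ratio of Rps27l to Rps27 was 0.574 ± 0.0266 and 0.656 ± 0.0781 (SD, n = 4), with no test made. Rpl22l1, a paralog of Rpl22 outside the name rule, stood at a ratio to it of 0.196 ± 0.0256 in the controls and 0.239 ± 0.0656 in the NOX4-deficient mice. Rpl7l1 stood at a ratio to Rpl7 of 0.122 ± 0.00925 and 0.109 ± 0.0132.

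Rpl10l, a testis paralog of Rpl10, had 0 counts in every library, which allows a level of up to 0.183 CPM (3 counts in the smallest library, counting error only). Rpl39l, a paralog of Rpl39 also known from testis, had 0 to 2 counts. Their partners were expressed, Rpl10 at 312 ± 21.1 CPM and Rpl39 at 36.5 ± 1.48 CPM in the controls (SD, n = 4). Rpl36a, which has a close paralog, was at 51.7 ± 2.54 and 56.4 ± 11.7 CPM, and Rps4x, the X-linked gene of its protein, at 254 ± 16.9 and 285 ± 60.4 CPM, in controls and NOX4-deficient mice.

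The level per coding length had a median of 317 CPM per kilobase over the 77 genes in the controls, with quartiles of 260 and 396. Rpl41, the shortest of the ribosomal proteins, stood highest at 1470 ± 26, followed by Rps24 at 683 ± 24.4 and Rps14 at 658 ± 27.6 CPM per kilobase (SD, n = 4). Rps24 and Rps14 differed by less than the sum of their SDs. Coding length stands in for the counted length here, which raises the value of Rpl41, whose transcript of 437 bases has a coding part of 75 bases. At the lower end were Rps19 at 145 ± 10.6, Rpl3 at 34.9 ± 6.61 and Rpl13a at 7.40 ± 1.04 CPM per kilobase. Rpl3 and Rpl13a were apart from their neighbours in the order, whereas Rps19 differed from the next, Rpl36a at 163 ± 7.99, by less than the sum of their SDs.

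Rpl13a, at 58 to 102 counts, and Rpl24 and Rps10, at 2 to 12 and 5 to 12 counts, were far below genes whose proteins stand beside theirs in 1 ribosome. Ribosomal protein genes have many near-identical processed copies in the genome, and how reads that match several places were counted is not given in the sources used here, so the levels of these 3 genes are uncertain. Rpl13a was at 4.20, 4.22, 5.46 and 4.16 CPM in the controls and at 4.81, 2.98, 4.05 and 3.4 CPM in the NOX4-deficient mice. Control replicate 3 was the highest of the 8, and the log2 fold change of −0.25 ± 0.20 was the lowest of the 77 (SE, n = 4 per genotype; edgeR, adjusted p = 0.496). Adding the counts of 7 rows named as pseudogenes of members left 0 genes called.

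Of the members with the next smallest p-values after Rpl38 and Rps12 among positive fold changes, Rps2, near the mRNA entry of the small subunit, was at 508 ± 38.3 CPM in the controls and 581 ± 113 CPM in the NOX4-deficient mice. Rps20 was at 186 ± 10.1 and 213 ± 46.3 CPM, and Rpl21 at 166 ± 9.5 and 187 ± 35.3 CPM (SD, n = 4). Of those with negative fold changes, Rpl10, which is added late and joins the subunits, was at 312 ± 21.1 and 293 ± 40.5 CPM, and Rpl22 at 125 ± 9.24 and 120 ± 13.6 CPM. In each of these the SD was larger in the NOX4-deficient group. Of genes known outside the ribosome, Rpl5 and Rpl11, whose proteins bind MDM2, were at 248 ± 7.86 and 116 ± 3.01 CPM in the controls and at 252 ± 29.2 and 117 ± 24.5 CPM in the NOX4-deficient mice. Rps6, whose protein is the substrate of S6 kinase, was at 193 ± 18.1 and 186 ± 24.7 CPM. These 3 genes were chosen for their roles.

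Tested were also 5 ribosomal protein genes and paralogs outside the name rule. Of these, 0 were called, beside 6.16% of all rows, and 0 met the stricter pattern, beside 1.05%. Fau, which encodes a small-subunit protein fused to a ubiquitin-like one, was at 84.7, 64.8, 75 and 74.6 CPM in the controls and at 105, 56.8, 97.8 and 66.4 CPM in the NOX4-deficient mice. Rack1, a scaffold on the small subunit, was at 275, 262, 275 and 253 CPM in the controls and at 316, 215, 298 and 264 CPM in the NOX4-deficient mice. In both the odd-numbered NOX4-deficient mice were above all controls and replicate 2 below them. Rpl7l1, a paralog of Rpl7, was at 36.0, 35.8, 32.7 and 34.0 CPM in the controls. In the NOX4-deficient mice it was at 32.4, 30.3, 35.4 and 30.8 CPM, with replicates 1, 2 and 4 below every control.

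Gene groups that work with the ribosome were read from lists. Of 77 mitochondrial ribosomal protein genes tested, 1 rose (Mrps14, log2 fold change 0.71) and 1 fell (Mrpl41, −0.66), beside 2.68 and 3.48% of all rows, and the median was 0.01. Neither was called without NOX4-deficient replicate 3 or without control replicate 1, 3 or 4. Of 79 nuclear genes for subunits of oxidative phosphorylation, 0 were called, with a median of 0.12. Their transcripts are short as well (medians of 1280 and 704 bases), and their differences between odd and even in the NOX4-deficient group had medians of 0.32 and 0.45, beside 0.49 for the cytosolic ribosomal proteins. The stricter pattern was met by 1 of 77 and 0 of 79 of them, against 41 of 77. Their control levels were more spread, with median SDs of 0.12 and 0.14 on the log2 scale against 0.07, which makes the pattern harder to meet.

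Ribosome biogenesis factors, which process ribosomal RNA and assemble the subunits, showed another picture. Of 58 tested, 8 fell and 0 rose, beside 3.48% of all rows called lower, 51 were below 0, and the median log2 fold change was −0.28. Gnl3, the nucleolar GTPase nucleostemin, was at 37.5, 38.9, 41.7 and 53.3 CPM in the controls and at 26.9, 29.5, 26.8 and 26.1 CPM in the NOX4-deficient mice. Utp14a, of the small-subunit processome, was at 20.1, 21.0, 21.5 and 23.5 CPM and at 15.3, 11.1, 13.1 and 15.3 CPM. In both genes every NOX4-deficient mouse was below every control, and no odd and even difference was seen (−0.05 and 0.12 on the log2 scale). The log2 fold change was −0.65 for each (edgeR, adjusted p = 0.00918 and 0.011) and −0.52 for Mybbp1a, a nucleolar repressor of rRNA synthesis (adjusted p = 0.0132). Nob1, Rrp12, Tsr1, Rrs1 and Ddx21 were the other 5. The number that fell was 3, 5, 3 and 2 without NOX4-deficient replicate 1 or 3 or control replicate 3 or 4, and 0 in the even-numbered mice alone, while 51 to 53 were below 0 in each of these 5 fits. Mybbp1a was among those lost, at −0.43 without control replicate 4.

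Initiation factors fell in 3 of 38 cases and rose in 0, beside 3.48% of all rows called lower and 2.68% called higher, with a median log2 fold change of −0.14. Eif4a2, an RNA helicase of cap-dependent initiation, was at 633, 577, 625 and 644 CPM in the controls and at 434, 393, 439 and 456 CPM in the NOX4-deficient mice. Its log2 fold change was −0.52, that of its paralog Eif4a1 −0.57 and that of Eif3a, the scaffold of the factor that binds the small subunit, −0.74 (edgeR, adjusted p = 0.00716, 0.014 and 0.00769). The 4 mice of each genotype did not overlap in any of the 3 genes. The number of initiation factors that fell ran from 2 to 4 with a library left out, and was 0 in the even-numbered mice alone. Eif4a2, Eif4a1 and Eif3a were called in 17, 18 and 20 of 21 alternatives. Of 9 elongation factors and regulators tested, 1 rose, Eef2k, the kinase that inhibits the elongation factor Eef2 (0.50, adjusted p = 0.0149 in edgeR). Lying at the fold threshold, it was called in 10 of 21 alternatives.

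Among 17 genes that control the translation of ribosomal protein mRNAs, 2 fell and 0 rose, beside the same shares of 3.48 and 2.68% of all rows. Eif4ebp1, a repressor of cap-dependent initiation that mTORC1 inactivates, was at 61.1, 45.5, 50.3 and 97.7 CPM in the controls and at 26.8, 20.2, 30.6 and 21.5 CPM in the NOX4-deficient mice. Ddit4, an inhibitor of mTORC1 induced by stress, was at 46.9, 91.7, 162 and 150 CPM in the controls and at 38.1, 31.7, 20.9 and 21.3 CPM in the NOX4-deficient mice. Neither gene overlapped between genotypes, and the log2 fold changes were −1.36 and −2.01 (edgeR, adjusted p = 0.00729 and 0.0185). The adjusted p of Ddit4 in edgeR was 0.143 with the replicate number as a block, and 0.0528 to 0.0667 without NOX4-deficient replicate 2, 3 or 4 or control replicate 4. Larp1 was at 231 ± 30.3 and 204 ± 32.8 CPM (SD, n = 4; adjusted p = 0.461 in edgeR). Of 17 other mRNAs with a terminal pyrimidine tract 0 were called, beside 6.16% of all rows, and their median was −0.09. Npm1 and Hnrnpa1 missed only the fold threshold, at −0.47 and −0.43 (edgeR, adjusted p = 0.0135 and 0.0277). Neither gene overlapped between genotypes. Over all rows, 7.75% had an adjusted p under 0.05 at any fold change.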

How the data were processed

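Gastrocnemius RNA of 8 mice was sequenced after poly(A) selection in unstranded libraries. The authors deposited raw counts per gene, made with the nf-core pipeline; the submitters' processing notes name STAR and GRCm39, and the handling of multiply mapped reads is not given in the sources used here. All count columns matched a sample (0 unmatched), and 412 rows repeat a name. Members and lists were chosen with earlier results of these data known. In R 4.3.3, edgeR 4.0.16 (TMM, filterByExpr, robust glmQLFit, glmQLFTest) was fitted to all rows with genotype alone, and p-values were adjusted by Benjamini-Hochberg over 12725 rows. Calls needed adjusted p < 0.05 together with a log2 difference beyond 0.5 in size. The biological coefficient of variation was 0.174. DESeq2 1.42.0, pydeseq2 0.5.4, other scalings, filters, replicate terms and omissions were alternatives. The code was tested on simulated data. Lengths and GC content, for 98.9% of rows tested, came from GENCODE M21 (the shortest principal coding transcript), used as gene properties only. Groups followed the genotype label, and log2 levels used an offset of 0.01 CPM. Named members were Rpl3, Rpl3l, those with a paralog, the 5 smallest p-values in each direction and the 3 highest and lowest levels. Others were named for the odd and even comparison or their role, after values were seen.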

Additional observations from a re-analysis of the deposited data

Results flagged for a closer look

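In 46 groups of 4 mice checked for a mouse far from the others, 2 had one, and chance flags about 1 in 20 groups. For Rpl13a, control replicate 3 was far above the other controls, with a gap of 0.954 of the range of the group. For Rpl3, control replicate 1 was far above the others, with a gap of 0.968 of the range. The mean log2 level over the ribosomal protein genes moved in opposite directions in the odd- and even-numbered mice, at 0.26 above control in NOX4-deficient replicates 1 and 3 and at −0.14 in replicates 2 and 4, and the difference between these values was not tested.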

How the results depend on the processing

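No ribosomal protein gene was called under any scaling, filter, tool, block or single omission. Exceptions were the odd-numbered mice alone, with 2, and the same with length and GC trend removed (chosen after seeing the data), with 1. Over all rows 784 genes were called, 90 in the even-numbered mice alone, 499 to 712 with a library left out (499 without control replicate 4), 1015 by DESeq2 and 933 with the replicate number as a block. The block called 0 ribosomal protein genes. Same-numbered mice of the 2 genotypes correlated at 0.223, 0.147, 0.041 and 0.0412, so the numbers were not taken as pairs. Mice of the same parity but different number correlated at 0.188, 0.187, 0.0592 and 0.151. Those of opposite parity ran from −0.215 to 0.00804. Parity was thus shared in part between the genotypes over all rows, which was not tested. The median log2 fold change of the ribosomal protein genes was −0.14 in the even-numbered mice and 0.00 to 0.19 with a library left out. The ratio of Rpl3l to Rpl3 differed by 0.19 to 0.40 (log2) with a library left out. Only without control replicate 3 did its exact permutation p fall to 0.0286. That omission removes the only control among the NOX4-deficient mice, so the p supports no difference.

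Single genes that were not called changed sign in places. In the even-numbered mice the log2 fold changes were −0.02 for Rpl21, −0.11 for Rpl36a, −0.16 for Rpl38, −0.19 for Rpl39 and Rpl41, −0.07 for Rpl7, −0.06 for Rps12, −0.21 for Rps19, −0.05 for Rps2, −0.09 for Rps20, −0.15 for Rps24, and −0.03 for Rps27l and Rps4x. In the odd-numbered mice they were 0.01 for Rpl22, 0.21 for Rps14 and 0.18 for Rps27. With the length and GC trend removed they were −0.02 for Rpl41 and −0.09 for Rps19, and with the replicate block added −0.03 and −0.09. With at least 10 counts in every library Rps14 was at 0.01. With a library left out, Rpl39 ran from −0.05 to 0.24, Rpl41 from −0.02 to 0.26, Rpl7 from −0.01 to 0.15, Rps14 from −0.13 to 0.09, Rps19 from −0.04 to 0.17, Rps24 from −0.04 to 0.16, Rps27 from −0.25 to 0.01 and Rps27l from 0 to 0.13. The cause was not tested. With 4 mice per genotype, standard errors of 0.10 to 0.20 limit what can be seen for 1 gene. Rpl24 and Rps10 had too few counts to enter the fit of all 8 libraries.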
